A study of Mus musculus with 15 samples.

Results

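The clustered protocadherins are cell adhesion genes that lie side by side in an alpha, a beta and a gamma cluster on mouse chromosome 18. Every gene symbol of these 3 clusters in the deposited count tables was taken, by the name of the gene and not by any measured value. This gave 56 of 31017 symbols: 13 in the alpha cluster, 22 in the beta cluster and 21 in the gamma cluster. The gamma members were 12 of the A type, 6 of the B type and 3 C-type genes (Pcdhgc3, Pcdhgc4 and Pcdhgc5), and the alpha members were 11 variable genes and the C-type genes Pcdhac1 and Pcdhac2. Rows for Pcdha10 and Pcdhgb8 were not analysed here.

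Clustered protocadherins are cadherin-like proteins of the cell surface, and most bind the same isoform on the facing cell. Single neurons switch on a small, largely random set of the variable isoforms from alternative promoters, while C-type isoforms are used more uniformly, and the combination lets a neuron tell its own branches from those of other cells. In the alpha and gamma clusters each variable exon is spliced to constant exons shared by the cluster, whereas each beta gene is a single exon. Promoter choice depends on DNA methylation, on the insulator protein CTCF and on cohesin, which is why these genes are of interest where the maintenance DNA methyltransferase Dnmt1 is mutated.

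The series compared RNA pulled down from wild type (WT), heterozygous (Het) and homozygous (Hom) mice of a line with a dominant Dnmt1 mutation. RNA immunoprecipitation (RIP) with an anti-Dnmt1 antibody was done on fibroblast lines grown from tails and fixed with formaldehyde, with 2 WT, 2 Het and 2 Hom libraries. RIP with an antibody to 5-methylcytosine (m5C), a modified base, was done on mRNA, with 4 fibroblast libraries (2 WT, 1 Het, 1 Hom) and 3 cortex libraries (1 WT, 1 Het, 1 Hom). Fibroblasts and cortex have 1 further library each, called input here after its title; the antibody label of both says IgG. The fibroblast lines came from littermates of the same sex, and both rRNA depletion and polyA selection were used, without a statement of which library had which. The sources used here do not give the allele, strain or age, nor whether libraries of a group came from separate lines or cultures. A p-value here therefore measures no more than how libraries vary around the fitted model, and that variation may be technical. Of the m5C and input groups, only fibroblast WT has more than 1 library. In tests with these groups the variation also includes differences between genotypes that the model leaves out. With no input for each genotype, RNA pulled down and RNA present cannot be told apart, and in such bulk samples neither can fewer cells of a type and less RNA per cell.

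Levels are CPM, a gene's counts scaled to a common library total of gene counts, with 4 dominant genes (Lars2, Gm42418, Gm26917 and Gm10800) left out of the total. For comparing genes they are given per kb of exon that no other listed gene shares. On the mm10 build the alpha members began at 36930184 and ended at 37187661 on chromosome 18, the beta members lay between 37264938 and 37524479, and the gamma members between 37661793 and 37841873, all on the plus strand. How the counting treated reads in the shared constant exons is not stated, and the lengths used here leave those exons out. Alpha and gamma levels are therefore uncertain, as are those of members whose near-identical exons could split reads. Pcdha4 kept only 404 bases of its own and never had more than 3 counts, and Pcdha11 covers 2 gene models.

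Counts were few in most libraries. The members together had 194 and 292 counts in the WT Dnmt1 RIP libraries, 352 and 410 in Het and 347 and 1038 in Hom. They had 280, 262, 582 and 180 counts in the fibroblast m5C libraries (WT 1, WT 2, Het and Hom), and 939, 1180 and 1914 in the cortex m5C libraries (WT, Het and Hom). The cortex input held 4212 counts over all 56 members, and the fibroblast input 67 counts over 12 of them. A count of 0 allows up to 3 counts, which is 1.30 to 2.44 CPM in cortex m5C RIP, 1.44 to 4.37 CPM in fibroblast m5C RIP and 2.52 to 15.5 CPM in the Dnmt1 RIP. These floors cover counting error only.

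The labelled tissues were checked against marker lists before the results. All 10 neuron markers were read in each cortex library, with a summed level of 7223 to 7394 CPM in the m5C RIP. Neuron markers were also read in the fibroblast libraries, and where these counts came from was not tested. All 10 neuron markers had counts in every fibroblast m5C library (442 to 972 CPM summed) and in every Dnmt1 RIP library (2750 to 4498 CPM). Fibroblast markers summed to 26022 to 32525 CPM in fibroblast m5C RIP, but to only 657 and 2248 CPM in the WT Dnmt1 RIP libraries, 22440 and 8543 in Het and 1287 and 2833 in Hom, with Twist1 at 0 in at least 1 of them. Olfactory receptor genes are largely silent outside the nose and serve here as a rough measure of counts that do not come from expression. They stood at 1.29 to 2.56 CPM per kb in the Dnmt1 RIP, 0.362 to 0.549 in fibroblast m5C RIP and 0.0428 to 0.179 in cortex m5C RIP. In fibroblast m5C RIP the counts of WT library 1 equalled or exceeded those of the Hom library in all 31017 genes, 56 of 56 members among them (equal in 24), so both may share reads.

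The clusters were compared first by tissue and antibody. In cortex m5C RIP the gamma cluster was the most abundant per kb, with 7.12 (WT), 7.82 (Het) and 8.19 (Hom) CPM per kb. The alpha cluster stood at 3.65, 3.87 and 3.60 and the beta cluster at 2.29, 2.80 and 2.33 CPM per kb in the same libraries. The 3 clusters did not overlap, and the order gamma, alpha, beta was the same in every cortex library, input included (8.82, 4.63 and 2.52 CPM per kb).

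In fibroblast m5C RIP the gamma cluster was again highest, with 2.88 and 1.86 (WT), 2.65 (Het) and 2.18 (Hom) CPM per kb. The alpha cluster had 1.39, 0.82, 0.782 and 1.02 CPM per kb, and the beta cluster 1.4, 0.927, 1.01 and 1.05. Alpha and beta overlapped there, with beta slightly above alpha in each library. In the Dnmt1 RIP the gamma cluster had 6.66 and 6 (WT), 4.62 and 3.92 (Het) and 5.85 and 6.81 (Hom) CPM per kb, and it was above both other clusters in 6 of 6 libraries. Alpha and beta changed places from library to library.

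**Figure D1:**
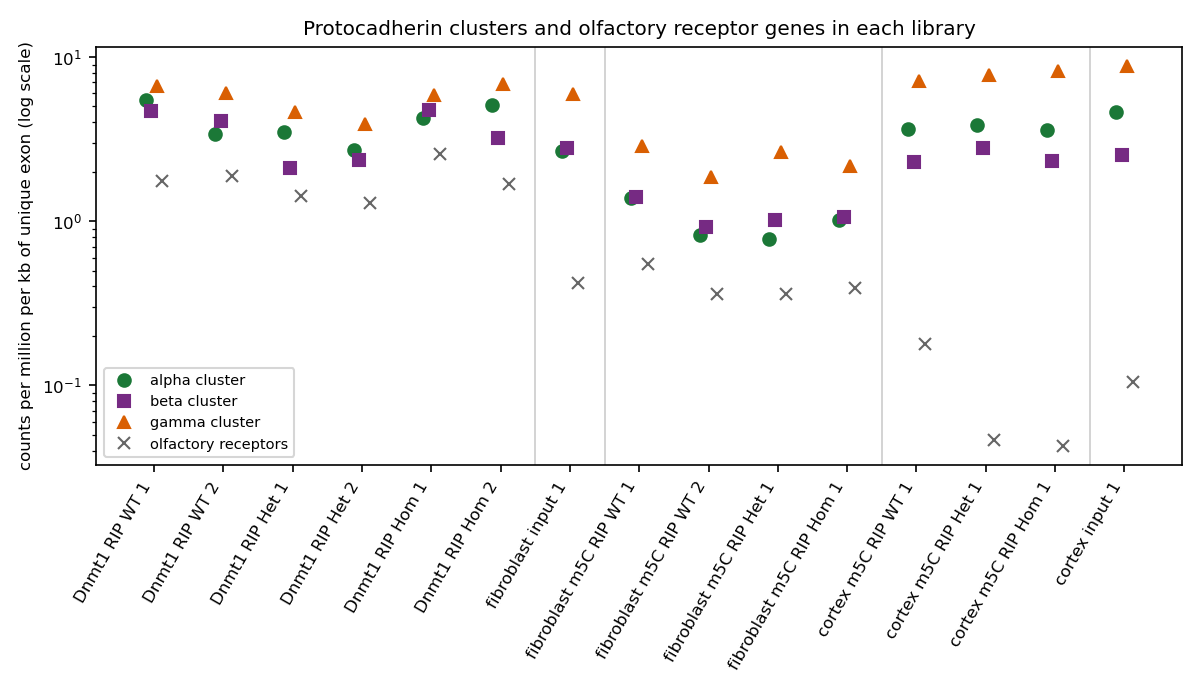
Level of each protocadherin cluster and of the olfactory receptor genes (y axis, CPM per kb of unique exon, log scale) in each of the 15 libraries (x axis); each symbol is 1 library. The gamma cluster (orange triangles) is at the top in every library, and the distance down to the olfactory receptor genes (grey crosses) is widest in cortex.

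The make-up of the protocadherin counts differed by tissue. The gamma cluster gave 59.1% of them in cortex m5C RIP (56.6 to 61.2% over 3 libraries) and 59.6% in cortex input, against 33.9% of the unique exon length. It gave 54.8% in fibroblast m5C RIP (51.4 to 58.8% over 4 libraries) and 45.8% in the Dnmt1 RIP (39.5 to 48.9% over 6 libraries). The beta cluster went the other way, with 26.8% in cortex m5C RIP (25.2 to 29.2%), 34.7% in fibroblast m5C RIP (32.5 to 37.0%) and 37.3% in the Dnmt1 RIP (32.4 to 46.1%), against 49.0% of the length. Cortex and fibroblast m5C libraries did not overlap in the beta share and overlapped in the gamma share.

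Relative to the olfactory receptor genes, the members stood far higher in cortex than elsewhere. Per kb they were at 23.2, 101 and 106 times that level in cortex m5C RIP (WT, Het and Hom), and at 3.46, 3.39, 4.22 and 3.66 times in fibroblast m5C RIP. In the Dnmt1 RIP they were at 3.11 and 2.43 (WT), 2.25 and 2.29 (Het) and 1.96 and 2.82 (Hom) times. In the Dnmt1 RIP the beta cluster stood at 1.49 to 2.65 times and the alpha cluster at 1.65 to 3.09 times, and either could be the closer one. Across the 56 members, Dnmt1 RIP CPM rose with unique exon length (Spearman's rho 0.58, described over genes of the same 6 libraries), and less so in fibroblast (0.41) and cortex m5C RIP (0.29).

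Of the C-type genes, Pcdhgc5, Pcdhgc3 and Pcdhac2 were among the highest members in cortex m5C RIP. Pcdhgc5, the last gene of the gamma cluster, had the highest level of all members in cortex, with 92.7 (WT), 102 (Het) and 121 (Hom) CPM in m5C RIP and 118 CPM in input. In fibroblast m5C RIP it had 29.9 and 14.6 (WT), 15.9 (Het) and 23.3 (Hom) CPM, and in the Dnmt1 RIP 67.3 and 28.9 (WT), 36.8 and 44.8 (Het) and 61.1 and 89.9 (Hom). All cortex values lay above all others.

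Pcdhac2, the last gene of the alpha cluster, followed the same tissue pattern. It had 32.5, 35.0 and 36.1 CPM in cortex m5C RIP from WT to Hom, and 45.7 in the cortex input. In fibroblast m5C RIP it had 8.72 and 4.29 (WT), 10.1 (Het) and 10.2 (Hom) CPM, without overlap with cortex. Its Dnmt1 RIP values spread from 8.68 to 51.8 CPM with a WT library at each end.

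Pcdhgc3 was the exception. In fibroblast m5C RIP it had 21.2 and 18.9 (WT), 53.0 (Het) and 19.0 (Hom) CPM, and in cortex m5C RIP 26.8, 21.1 and 19.1 in the same order of genotypes; cortex input had 22.7. The tissues overlapped, and the Het fibroblast library stood apart with 110 counts, against 13 to 22 in the other 3. Per kb it was the highest member in fibroblast m5C RIP, at a mean of 15.4 CPM per kb, against 4.55 for Pcdhga4 in the second place and 3.80 for Pcdhgc5 in the third.

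Pcdhgc4 and Pcdhac1 were lower. Pcdhgc4 had 16.3, 22.6 and 20.0 CPM in cortex m5C RIP and 11.2, 4.29, 9.15 and 7.29 in fibroblast m5C RIP (WT 1, WT 2, Het and Hom). Pcdhac1 had 8.94, 12.4 and 5.22 CPM in cortex and 2.49, 3.43, 0.481 and 0 in fibroblasts. In neither gene did the tissues overlap.

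Among the variable members, cortex levels went up along the gamma cluster. In cortex m5C RIP the A-type genes averaged 1.17 CPM per kb for Pcdhga1, the first gene, 3.98 for Pcdhga2 and 5.29 for Pcdhga3. At the far end they averaged 12.4 for Pcdhga11 and 7.36 for Pcdhga12. Over the 12 A-type genes the rank correlation of level with position was 0.83 in cortex m5C RIP, 0.76 in cortex input and 0.65 in the Dnmt1 RIP, against -0.13 in fibroblast m5C RIP. The rise was not particular to these genes. In cortex m5C RIP, fibroblast m5C RIP and the Dnmt1 RIP the correlation was 0.56, 0.73 and 0.60 over the beta cluster. In the same order it was 0.62, 0.40 and -0.13 over the alpha cluster, and 0.94, 0.37 and 0.89 over the B-type genes. These correlations are descriptions over genes that share libraries. Among the 6 B-type genes Pcdhgb6 was highest in cortex, with 31.7, 33.5 and 30.9 CPM (WT, Het and Hom).

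Pcdhac2 led the alpha genes and Pcdhb17 the beta genes in both tissues, and the genes listed after them were partly others, with no test of that order. In cortex the variable alpha genes Pcdha9 (5.32 CPM per kb), Pcdha12 (4.93) and Pcdha6 (4.85) came after Pcdhac2 (11.4), whereas in fibroblast m5C RIP Pcdha11 (1.82), Pcdha2 (1.17) and Pcdha12 (1.00) came after Pcdhac2 (2.75). Pcdhb17 stood at 3.89 CPM per kb in cortex and 2.99 in fibroblasts. Behind it were Pcdhb20 (3.79), Pcdhb9 (3.67) and Pcdhb15 (3.50) in cortex, and Pcdhb22 (2.27), Pcdhb16 (2.22) and Pcdhb12 (1.80) in fibroblasts. Pcdhb12 owed its place to 6 counts in WT library 1, with 1 count in the other 3 fibroblast libraries together. Its level per kb is also scaled to only 1107 of its 3034 exon bases, those that no other listed gene shares. The rank correlation between fibroblast and cortex m5C levels over the 56 members was 0.55.

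**Figure D2:**
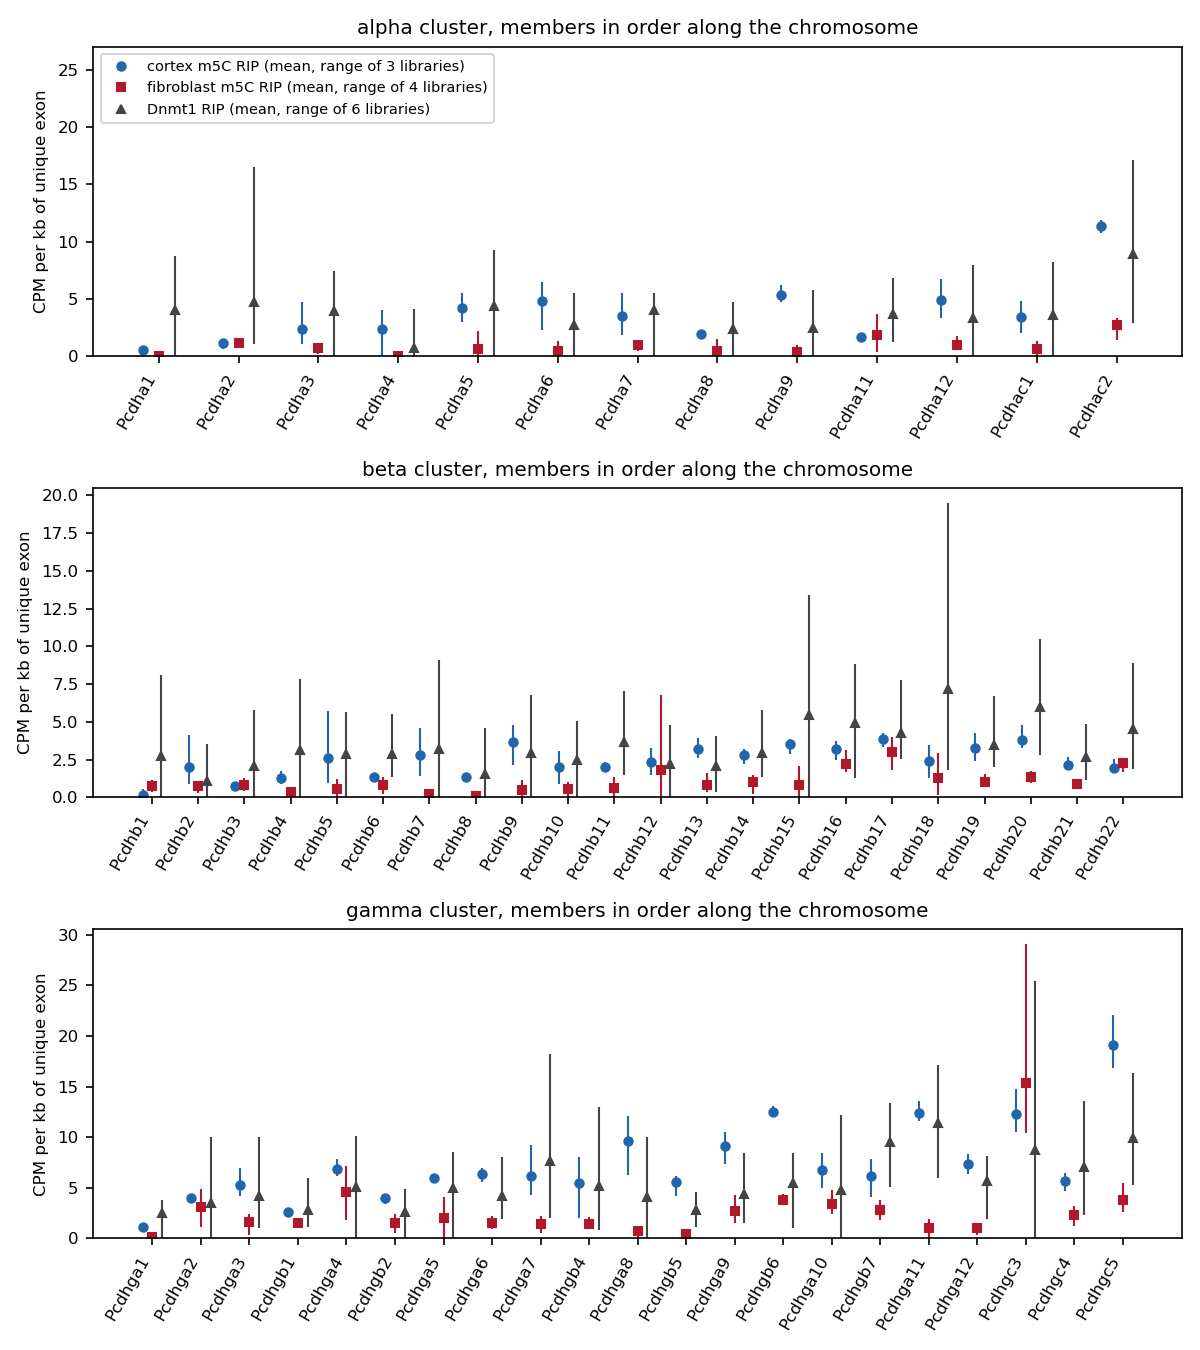
Level of each of the 56 members (y axis, CPM per kb of unique exon) in order along the chromosome (x axis), in the alpha, beta and gamma panels; points are means and bars the range over the 3 cortex m5C, 4 fibroblast m5C and 6 Dnmt1 RIP libraries. In cortex (blue) Pcdhac2 and Pcdhgc5 stand above the variable members of their clusters, and in the gamma panel Pcdhgc3 alone has a fibroblast mean (15.4) above its cortex mean (12.3).

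How m5C RIP of cortex differed from that of fibroblasts was then tested gene by gene, with genotype in the model. Of the members, 44 had enough counts for the test; 25 of them were higher in cortex and 0 lower at an adjusted p under 0.05 (edgeR quasi-likelihood test, Benjamini-Hochberg), against 30.9% of all 14193 genes higher and 33% lower. The filter asked for enough counts in a single library only, so a member could enter through its cortex levels alone. With no filter on low counts all 56 members were tested, and 31 were higher and 0 lower, against 16.7% of genes higher. By cluster, 6 of 9 alpha, 6 of 16 beta and 13 of 19 gamma members tested with the filter passed. The count fell to 15 without the fibroblast Het library, to 15 without the cortex Het library and to 14 without the cortex Hom library. It was 28 without fibroblast WT library 1 and 19 without the fibroblast Hom library. Both of these may share reads but were counted as separate, so the standard errors here may be too small.

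The 5 largest called differences were in Pcdha9, Pcdhga11, Pcdhb7, Pcdhga8 and Pcdhgb5, all variable members. None of them reached the filter's minimum in a fibroblast library, so they entered the test through cortex. Pcdhga11 had 35.8, 30.6 and 31.7 CPM in cortex (WT, Het and Hom) and 4.98, 0, 2.89 and 2.92 in fibroblasts (WT 1, WT 2, Het and Hom). Its log2 fold change was 3.51 ± 0.50 (SE, adjusted p = 2.31e-05). Pcdhga8 had 13.0, 21.9 and 25.2 CPM against 2.49, 1.72, 1.93 and 0 (3.32 ± 0.59, adjusted p = 0.000177). No fibroblast value of either gene reached the lowest cortex value.

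Pcdhgb5 had 19.5, 28.4 and 28.7 CPM in cortex against 1.25, 1.72, 4.33 and 1.46 in fibroblasts (3.12 ± 0.46, adjusted p = 3.08e-05). Pcdha9 had 15.4, 12.4 and 11.7 CPM against 2.49, 0.859, 0 and 0, and Pcdhb7 had 4.88, 16 and 8.26 against 1.25, 0, 0.481 and 1.46. Both rested on 3 fibroblast counts, and Pcdhb7 lost the call without the fibroblast Het library (adjusted p = 0.0571 in edgeR) or the cortex Het library (adjusted p = 0.1187). The ratio of pooled levels was 20.3 for Pcdha9 (95% counting interval 6.62 to 101) and 15.1 for Pcdhb7 (4.86 to 75.9).

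Of the C-type genes, 4 of 5 were higher in cortex. Pcdhgc5 differed by 2.25 ± 0.24 (log2 fold change ± SE, adjusted p = 1.23e-06), the smallest p of all members, Pcdhac2 by 1.89 ± 0.33, Pcdhac1 by 2.67 ± 0.89 and Pcdhgc4 by 1.15 ± 0.40. Pcdhgc3 had an estimate of -0.42 ± 0.34 that did not pass (adjusted p = 0.299), and it was 0.15 without the fibroblast Het library and 0.19 without the cortex Het library. Besides it, Pcdhb22 was the only tested member with a negative estimate (-0.36 ± 0.40, adjusted p = 0.447), with 9.75, 10.2 and 15.6 CPM in cortex and 16.2, 15.5, 14.0 and 10.2 in fibroblasts. Pcdha11, Pcdhb16 and Pcdhb17, named above as leading fibroblast members, had estimates of 0.03 ± 0.64, 0.43 ± 0.38 and 0.25 ± 0.36 and did not pass either. The other called members lay between 1.30 ± 0.43 (Pcdhb14) and 2.90 ± 0.91 (Pcdha6), with Pcdhga12 at 2.81 ± 0.39 and Pcdhgb6 at 1.63 ± 0.31.

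Brain markers moved with this difference. All 10 neuron markers, 5 of 6 astrocyte and 6 of 6 oligodendrocyte markers were higher in cortex, and 10 of 11 tested fibroblast and 9 of 9 macrophage markers lower. The neuron markers in fibroblast m5C RIP stood at 7.49 to 20.3% of their cortex m5C level, gene by gene, with a median of 10.3%. The protocadherins as a whole stood at 34.1% of theirs (27.5 to 42.6% over 4 libraries), and 41 of 56 members lay above the highest neuron marker. Oligodendrocyte markers stood at 4.47 to 12.6%, and astrocyte markers at 7.21 to 69.7%, the highest being Gja1. Over the 3 lists together, 9 of 56 members lay above the highest marker. The olfactory receptor genes stood at 465% of their cortex m5C level (405 to 614% over 4 libraries). Per kb, neuron markers in fibroblast m5C RIP stood at 18.8 to 32.9 times the olfactory receptor level, and the protocadherins at 3.39 to 4.22 times. The 5 most different members were at 6.35% (Pcdha9), 7.66% (Pcdhga8), 8.19% (Pcdhb7), 8.25% (Pcdhga11) and 8.57% (Pcdhgb5) of their cortex level. They were picked by this same difference, so these low shares restate it and are no separate result. Pcdhgc3 was at 125% and Pcdhb22 at 118%. Whether the brain marker counts in the fibroblast libraries and the members' fibroblast levels share a source was not tested. What part counts not from expression may have in those levels was not tested either.

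Other protocadherins and pathway genes gave a mixed picture, to be read beside all genes tested, of which 30.9% were higher in cortex and 33% lower. Of the 12 non-clustered protocadherins, adhesion genes that lie elsewhere in the genome, 9 were higher in cortex and 1 lower, with Pcdh9 at 3.56 ± 0.22 and Pcdh17 at 3.33 ± 0.21. Of 24 known regulators of the clusters and of DNA methylation, 8 were higher and 3 lower. Uhrf1, the partner that brings Dnmt1 to replicated DNA, differed by -4.35 ± 0.39. Of 19 partners and effectors of the proteins 8 were higher and 8 lower, among them Cyfip2 and Wasf1 of the actin-regulating WAVE complex at 2.85 ± 0.21 and 2.57 ± 0.23. Of 11 neighbours on the chromosome, 1 was higher (Rell2, 2.41 ± 0.47) and 2 lower (Diaph1, -0.86 ± 0.18, and Hdac3, -0.69 ± 0.18). Of 27 olfactory receptor genes tested, 1 was higher and 15 were lower in cortex; 1 of 4 endothelial markers was higher, and the single keratinocyte marker tested did not pass.

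**Figure D3:**
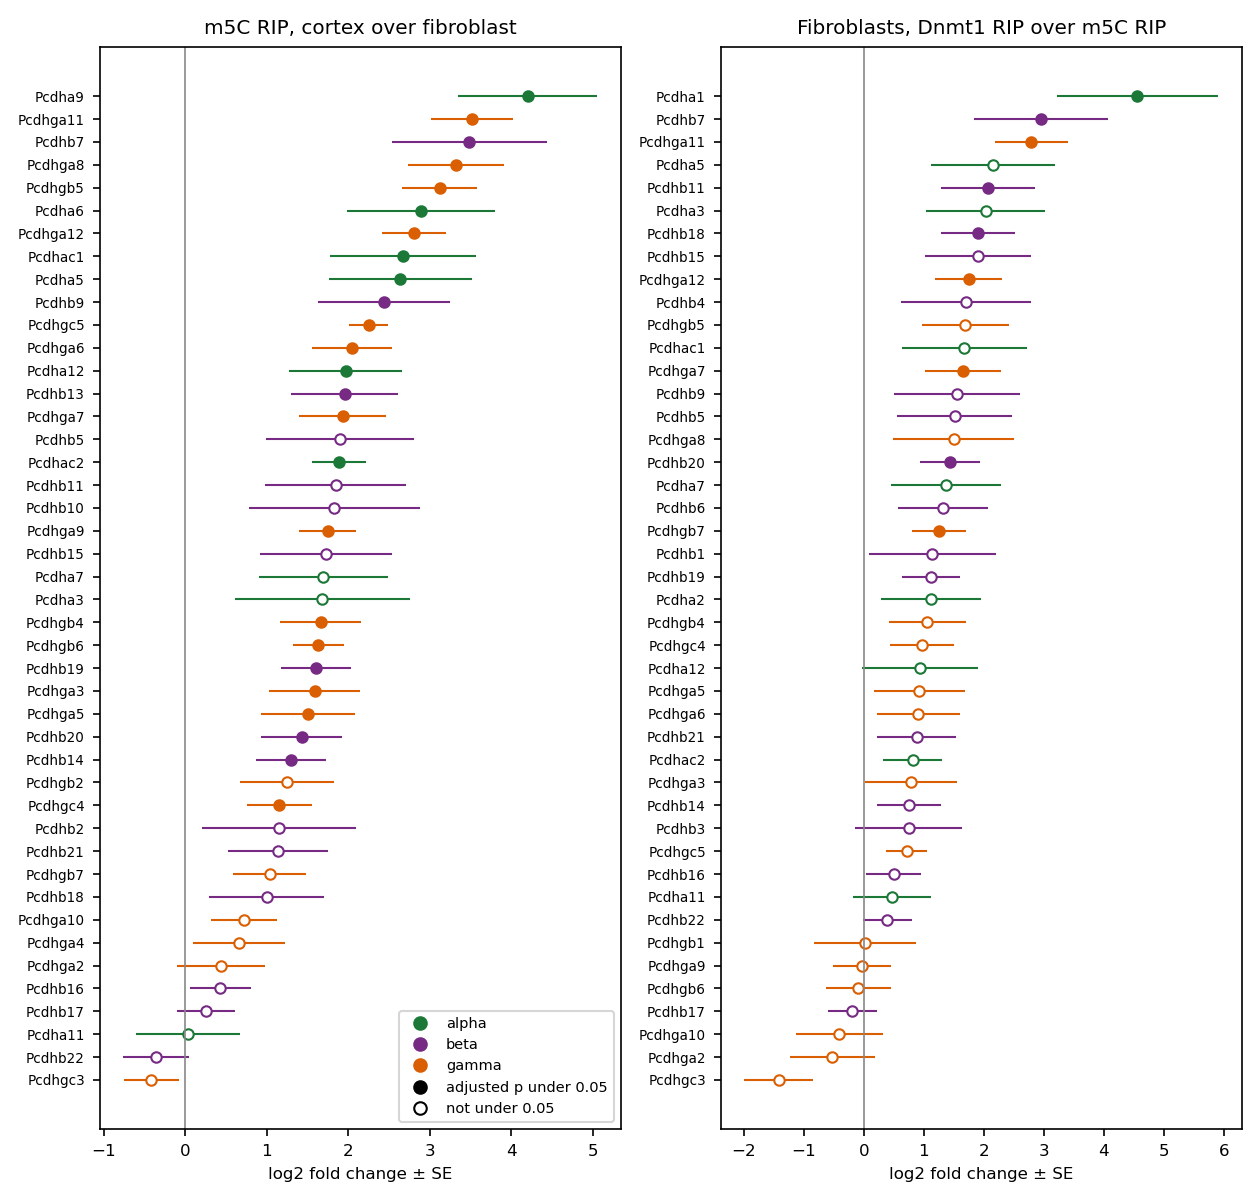
log2 fold changes with standard errors (x axis) of the members that had enough counts for the test (y axis, sorted), for m5C RIP of cortex over fibroblasts (left) and for Dnmt1 RIP over m5C RIP in fibroblasts (right); 44 members are in each panel, colours mark the clusters and filled points an adjusted p under 0.05. On the left 25 points are filled and Pcdhgc3 and Pcdhb22 alone lie below 0; on the right 9 are filled and Pcdhgc3 lies lowest.

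Whether the m5C antibody enriched the members over cortex input was tested with the 3 cortex m5C libraries, of different genotype, as replicates against the single input, which was assumed to vary like them. Of 52 members tested, 0 passed, against 0.481% of all 13518 genes. No member had an unadjusted p under 0.05 in edgeR, and DESeq2 called 0. With 1 input library these counts do not show that enrichment was absent. The summed member level was 763, 860 and 832 CPM in the m5C libraries (WT, Het and Hom) and 920 CPM in input, and the median log2 fold change was -0.13 (0.02 over all genes tested).

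The members kept their order between m5C RIP and input in cortex, with a rank correlation of 0.91 over 56 members. The smallest p belonged to Pcdhgb1, with 7.32, 7.28 and 6.08 CPM against 14.0 in input (log2 fold change -1 ± 0.55, adjusted p = 0.809 in edgeR). Pcdhb3 followed, with 3.25, 2.19 and 3.48 CPM against 8.74, and Pcdhga12, with 33.3, 37.9 and 29.1 against 46.8. In all 3 genes each m5C library was below the input. On the other side, Pcdhb13 had 9.75, 14.6 and 11.3 CPM against 7.21, Pcdhga4 9.75, 12.4 and 10.0 against 6.77, and Pcdhb5 20.3, 3.64 and 3.48 against 4.81, where only the WT library was above input. Of the untested members Pcdhb1, the first beta gene, had 2 counts in the m5C libraries together and 12 in input, a pooled ratio of 0.156 (95% counting interval 0.0169 to 0.699). Pcdhb12, also untested, had 13 counts in the m5C libraries and 2 in input, a pooled ratio of 6.07 (1.37 to 55.4); both genes were chosen after their values were seen. Of the other lists, 0 non-clustered protocadherins, regulators, partners and neighbours passed.

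**Figure D4:**
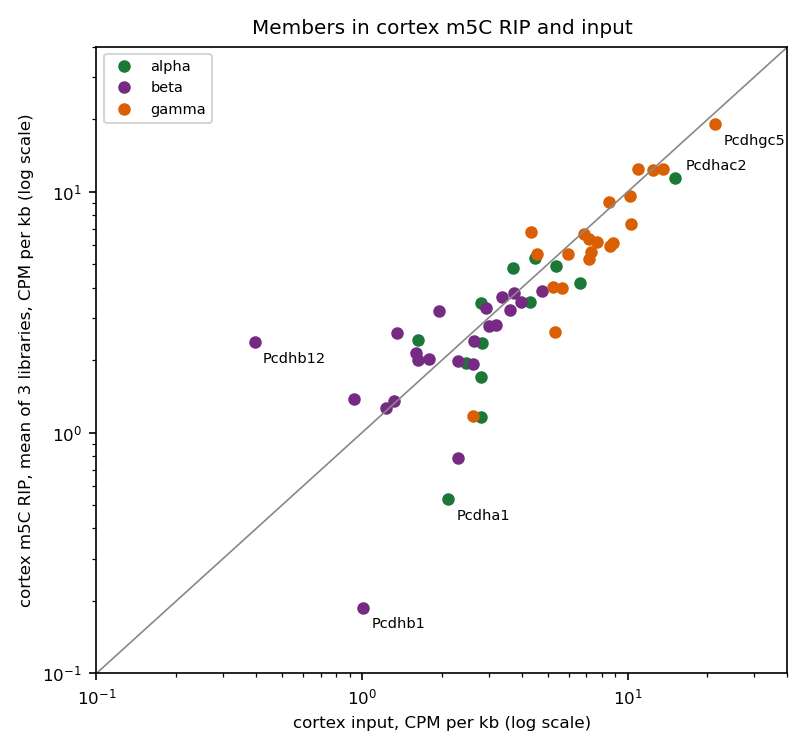
Level of each member in cortex input (x axis) and in cortex m5C RIP (y axis, mean of 3 libraries), both in CPM per kb on log scales, coloured by cluster; the line marks equal levels. Most members lie close to the line, with Pcdhgc5 at the top (19.1 in m5C RIP, 21.4 in input), Pcdhb1 lowest and Pcdhb12 farthest to the left above it.

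In fibroblasts the Dnmt1 RIP was compared with the m5C RIP, with genotype in the model; the contrast compares whole protocols. The summed member level was 1004 and 845 (WT), 588 and 540 (Het) and 922 and 872 CPM (Hom) in the Dnmt1 RIP, and 349 and 225 (WT), 280 (Het) and 262 CPM (Hom) in the m5C RIP. No Dnmt1 RIP library overlapped with an m5C library. Of 44 members tested, 9 were higher in the Dnmt1 RIP and 0 lower in edgeR, against 17.5% of all 17124 genes higher and 22.6% lower. With no filter, 7 of 56 members were higher and 1 lower, against 9.83% of genes higher and 14.5% lower, and without the 4 dominant genes 7 of 48 were higher and 1 lower. The median log2 fold change was 1.12, against 0.22 over all genes tested. The count was 4 without Dnmt1 RIP WT library 2 (3 higher and 1 lower), 5 without Het library 1 and 5 without Hom library 1. It was 5 without m5C WT library 1, 5 without WT library 2, 4 without the Het and 2 without the Hom library. The m5C WT library 1 and the m5C Hom library may share reads but were counted as separate here too.

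The members called were 1 alpha gene (Pcdha1), 4 beta genes (Pcdhb7, Pcdhb11, Pcdhb18 and Pcdhb20) and 4 gamma genes (Pcdhga7, Pcdhga11, Pcdhga12 and Pcdhgb7), all variable. Pcdhga11 had the smallest p. Its Dnmt1 RIP values were 25.9 and 37.6 (WT), 31.7 and 15.8 (Het) and 45.2 and 23.5 CPM (Hom), each above its m5C values of 0 to 4.98 CPM (2.79 ± 0.61, adjusted p = 0.00196 in edgeR). Pcdhga11 alone among the 9 passed in each of 17 alternative settings. Pcdha1 lost its call without Dnmt1 RIP WT library 2 (adjusted p = 0.05042 in edgeR) or Het library 1 (adjusted p = 0.05315), and Pcdhga12 without the m5C Het (adjusted p = 0.06897) or Hom library (adjusted p = 0.1262). Pcdhb18 lost it without Dnmt1 RIP WT library 1 (adjusted p = 0.09386), the m5C Het (adjusted p = 0.05829) or the m5C Hom library (adjusted p = 0.06161), and the other 5 lost it without any of 6 to 8 of the 10 libraries.

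Pcdhb18 had 98.3 and 14.5 (WT), 21.7 and 9.22 (Het) and 37.2 and 37.0 CPM (Hom) against 14.9, 0.859, 2.89 and 7.29 in m5C RIP (WT 1, WT 2, Het and Hom), with overlap (1.91 ± 0.62). Pcdhga12 had 8.68 to 37.2 CPM against 1.46 to 6.87, without overlap (1.75 ± 0.55). Pcdhb20 had 10.0 to 37.2 CPM against 3.43 to 6.23, without overlap (1.43 ± 0.50), and Pcdhgb7 13.2 to 34.7 against 4.81 to 9.97, also without overlap (1.25 ± 0.45). Pcdhb11 (2.07 ± 0.78) and Pcdhga7 (1.65 ± 0.63) passed narrowly, with adjusted p = 0.045 and adjusted p = 0.0475 in edgeR.

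Pcdha1, the first gene of the alpha cluster, had 5.18 and 17.4 (WT), 21.7 and 1.32 (Het) and 0 and 15.1 CPM (Hom) in the Dnmt1 RIP and 1 count in all fibroblast m5C libraries. The pooled ratio was 53.3, with a 95% counting interval of 9.02 to 2158. Pcdhb7 rested on 31 counts against 3, a pooled ratio of 14.1 (4.40 to 72.2). Both genes entered the test through the Dnmt1 RIP alone. So did at least Pcdhga11, Pcdhga12, Pcdhb11, Pcdhb20 and Pcdhgb7, whose m5C levels stayed below the filter's minimum. Of the 44 members tested, 38 had positive and 6 negative estimates, the lowest being that of Pcdhgc3. Pcdhgc3 had 0 to 46.3 CPM in the Dnmt1 RIP against 18.9 to 53.0 in m5C RIP. Its estimate of -1.42 ± 0.57 did not pass (adjusted p = 0.0592 in edgeR). It was called lower without Dnmt1 RIP WT library 2 (adjusted p = 0.00389), whose 46.3 CPM was its highest there, with no filter on low counts (adjusted p = 0.00176) and without the 4 dominant genes (adjusted p = 0.0443). Its estimate was -0.48 without the m5C Het library, -0.30 with the replicate block and 0.12 in WT libraries alone.

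Genes of the brain and olfactory receptor genes were also higher in the Dnmt1 RIP. Of 330 olfactory receptor genes tested, 82 were higher and 0 lower, with a median log2 fold change of 1.73. All 10 neuron markers (median 1.68), 5 of 6 astrocyte (1 lower) and 6 of 6 oligodendrocyte markers were higher, as was 1 of 4 endothelial markers, while 10 of 11 fibroblast and 9 of 9 macrophage markers were lower. Of the non-clustered protocadherins 9 of 12 were higher and 1 lower, with Pcdh9 at 2.07 ± 0.27. Of 24 regulators 6 were higher and 5 lower, of 19 partners 3 and 5, and of 9 neighbours tested 1 and 3. Over all genes tested, 17.5% were higher and 22.6% lower. The neuron markers in the Dnmt1 RIP stood at 38.7 to 88.3% of their cortex m5C level, gene by gene, and the protocadherins together at 97.2% of theirs (66.0 to 123% over 6 libraries). Astrocyte markers stood at 37.1 to 62.2% and oligodendrocyte markers at 39.5 to 113%, the highest being Olig2, and 24 of 56 members lay above all markers of the 3 lists. What part RNA from brain, or counts not from expression, may have in the members' Dnmt1 RIP levels was not tested.

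Finally, the genotypes were compared within each antibody. In the Dnmt1 RIP both Het libraries lay below the other 4 for the members together (588 and 540 CPM, against 845 to 1004 in WT and Hom). This held for the beta cluster, with 190 and 211 CPM in Het, 419 and 365 in WT and 425 and 287 in Hom. It also held for the gamma cluster, with 287 and 244 in Het, 414 and 373 in WT and 364 and 423 in Hom. The alpha cluster overlapped, with 110 and 85.6 in Het, 171 and 107 in WT and 133 and 161 in Hom. The order rests on leaving the 4 dominant genes, 63.5% of the counts of Hom library 1, out of the total. With all gene counts in the total, Hom library 1 was lowest for the members together (337 CPM, against 432 and 509 in Het) and for the gamma cluster (133, against 211 and 230), and for the beta cluster it lay between the Het libraries (155, against 140 and 199).

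No single member passed the test. Of the 28 members tested, 0 were called for Het against WT, Hom against WT or Hom against Het in edgeR, against 0% of 13589 genes in each, and DESeq2 called 0 members in each. At an unadjusted p under 0.05 there were 0, 1 and 0 members. For Het against WT 5 estimates were positive and 23 negative, with a median of -0.72 (0.03 over all genes). For Hom against WT the median was -0.13, and for Hom against Het it was 0.54, with 22 positive and 6 negative; the comparisons share libraries.

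The member under 0.05 was Pcdhga2, with 25.9 and 17.4 (WT), 1.67 and 5.27 (Het) and 0 and 4.20 CPM (Hom). It was higher in both WT libraries than in the other 4, and its log2 fold change for Hom against WT was -2.82 ± 1.26 (adjusted p = 1 in edgeR). Pcdhga10 had 0 and 31.8 (WT), 3.34 and 1.32 (Het) and 15.9 and 22.7 CPM (Hom), so WT spanned the whole range. Pcdhga8 went from 0 and 2.89 CPM (WT) to 6.68 and 13.2 (Het) and 7.97 and 21 (Hom), on 1 count in WT. The pooled ratio of Hom to WT was 9.63, with a 95% counting interval of 1.59 to 394.

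Pcdhb18, Pcdhb21, Pcdhb22, Pcdhga5, Pcdhga9, Pcdhga12, Pcdhgb5, Pcdhgc5 and Pcdha1 were named beside them, as the 3 smallest p in each direction of a genotype contrast. Their estimates ran from -1.61 ± 0.86 (Pcdhb18, Het against WT) to 1.59 ± 0.91 (Pcdhga9, Hom against Het). Pcdhgc5 was estimated at 0.75 ± 0.52 for Hom against WT and 0.80 ± 0.49 for Hom against Het. None passed.

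The lower Het level went together with other lists. Olfactory receptor genes had 56 of 79 negative estimates for Het against WT (median -0.93), all 10 neuron markers had negative estimates (median -0.32), and fibroblast markers had positive estimates in 11 of 11 (median 2.13), as had 7 of 8 macrophage markers (median 1.73). Astrocyte and oligodendrocyte markers had medians of -0.26 and -0.22, endothelial markers -0.25, and Krt14, the keratinocyte marker tested, -3.18 ± 1.51. The medians were -0.42 for the non-clustered protocadherins, -0.04 for regulators, -0.01 for partners and -0.10 for neighbours, with 0 called in each. Relative to the olfactory receptor genes, the member level of the Het libraries (2.25 and 2.29 times) lay between those of the Hom libraries (1.96 and 2.82). Het and Hom thus overlapped, while both Het libraries stayed below both WT libraries. The part of these shifts in the Het level was not tested.

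In m5C RIP no member passed the test between genotypes, which does not show that levels were alike. Of 44 members tested over both tissues, 0 were called for Het or for Hom against WT in edgeR, against 0% of 14193 genes in each; 0 members had an unadjusted p under 0.05, and DESeq2 called 0. The median log2 fold changes were -0.04 and 0.02. The Hom contrast counts fibroblast WT library 1 and the Hom library as separate although they may share reads, and 0 members were called without either of them. In cortex alone, the gamma cluster had 443 (WT), 487 (Het) and 509 CPM (Hom), the beta cluster 206, 251 and 209 and the alpha cluster 115, 122 and 113, with 1 library per genotype and so no test.

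The smallest p for Het against WT was that of Pcdhgc3 (0.73 ± 0.38, adjusted p = 0.989 in edgeR), whose high fibroblast Het library was described above. Without that library its estimate was -0.31. For Hom against WT it was that of Pcdhb5 (-2.26 ± 1.16), which had 20.3 CPM in cortex WT and 3.48 in cortex Hom, and 0 and 4.29 in fibroblast WT and 0 in fibroblast Hom. Pcdhgb4 followed (1.13 ± 0.62), with 7.32 CPM in cortex WT, 23.3 in Het and 28.7 in Hom. In fibroblasts Pcdhgb4 had 7.47 and 3.43 (WT), 3.85 (Het) and 5.83 CPM (Hom), so the genotypes overlapped there. Of the other members with the 3 smallest p in each direction, Pcdhgb5, Pcdha12, Pcdhb14 and Pcdha7 had estimates from 0.66 to 1.03 in one of these contrasts, and Pcdhga9, Pcdha6, Pcdha9, Pcdhac1 and Pcdha5 from -1.57 to -0.52. None of these passed.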

How the data were processed

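RNA of 15 mouse libraries in 11 groups was measured. The authors deposited a table of raw counts by gene symbol for each library. The submitters' processing notes name Trim Galore 0.4.1, HISAT2, featureCounts and mm10; annotation and strand: not given in the sources used here. Of 31017 symbols, 30532 matched GENCODE M21 (mm10), which gave coordinates and exon lengths. Entries for no gene, present in 6 tables, were left out; among these libraries 3.79 to 10.1% of all entries lay in genes. Gene counts ranged from 217173 to 4913482 per library, or 95107 to 4576517 without Lars2, Gm42418, Gm26917 and Gm10800.

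The members and lists were chosen with earlier results of these data known. The test was edgeR's quasi-likelihood test (version 4.0.16, R 4.3.3), after filterByExpr (minimum count 10, minimum total 15), with TMM factors (glmQLFit, glmQLFTest, Benjamini-Hochberg over all genes tested, threshold 0.05); it was tested on simulated data. Outside the Dnmt1 RIP fit, the minimum count had to be reached in a single library only, so a gene could enter through the higher group alone. A standard error is the fold change on the log2 scale over the root of the F statistic. The common biological coefficient of variation was 0.424 for the Dnmt1 RIP fit (6 libraries), 0.205 for m5C RIP (7), 0.383 for both antibodies in fibroblasts (10) and 0.159 for cortex m5C RIP and input (4). Intervals are 95% exact binomial intervals of counts and cover counting error only; where a group had 1 to 3 counts, ratios pool its libraries.

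Named by rule were, per cluster, the 4 highest members in cortex and in fibroblast m5C RIP by CPM per kb, the C-type genes, and per comparison all members called if 10 or fewer, otherwise the 5 largest; where none was called, the 3 smallest p per direction; of other lists, up to 4 genes with the smallest p. Alternatives were RLE factors, total counts, no dominant genes, no filter, DESeq2 1.42.0, left-out libraries, a replicate block and fits of fewer groups. Levels and figures came from Python 3.11.15 with SciPy 1.17.1, numpy 2.4.6, matplotlib 3.10.9 and pandas 2.3.3. No member's sequence is printed.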

Additional observations from a re-analysis of the deposited data

Results flagged for a closer look

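The alpha cluster moved in opposite directions between tissues for Het against WT in m5C RIP. It had 43.6 and 25.8 CPM in fibroblast WT and 24.6 in Het, and 115 CPM in cortex WT and 122 in Het. The difference of the log2 ratios was 0.584. It was not tested, and it rests on 1 Het library in each tissue and on fibroblast WT library 1: against that library alone it was 0.914, and against WT library 2 alone 0.155.

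The fibroblast input entered no comparison. It held 67 counts in clustered protocadherins, more than the 3 counts a count of 0 allows, with 8 in the alpha, 24 in the beta and 35 in the gamma cluster. They came from 12 members, among them Pcdhgb4 with 10 counts, and 58.4% of the library's counts lay in 4 dominant genes.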

How the results depend on the processing

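For Dnmt1 RIP Het against WT, Hom against WT and Hom against Het, for both genotype contrasts in m5C RIP and for cortex m5C RIP over input, 0 members were called under every alternative run. Without a filter on low counts the whole table gave 192, 13 and 113 calls for the Dnmt1 RIP contrasts in edgeR, against 0 with it. The median of the members tested for Het against WT ran from -0.80 to -0.41 with 1 library left out, the highest without WT library 1. With total counts alone it was -0.57 for Hom against WT and 0.20 for Hom against Het, where all genes moved by -0.38 and -0.36, and 1.55 for Dnmt1 RIP over m5C RIP, where all genes stood at 0.58. With the dominant genes in the total, the log2 ratio of the summed level was -0.47 for Hom over WT (-0.04 without them) and 1.22 for Dnmt1 RIP over m5C RIP (1.51).

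With 1 library left out, 14 to 28 members were called for cortex against fibroblast m5C RIP and 2 to 10 for Dnmt1 RIP over m5C RIP. The latter count was 2 in WT libraries alone (12 members tested), 13 with total counts and 12 with DESeq2. With the replicate block, over the 8 numbered libraries, it was 1 (30 tested). The labels do not say whether the replicate numbers pair the Dnmt1 RIP libraries. The differences between numbers correlated at -0.01 (WT and Het), 0.20 (WT and Hom) and 0.06 (Het and Hom), which does not settle it. The replicate block left 0 members called in the Dnmt1 RIP contrasts.

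Of the alternatives for single named members, 543 kept side and direction, 57 lost the call and 9 reversed, each with 1 library left out and none of them called. Most named members were not called in the main fit, and for them staying uncalled counted as kept. For members called in Dnmt1 RIP over m5C RIP, lost calls ran from 0 of 17 alternatives (Pcdhga11) to 11 of 16 (Pcdhga7). With 1 library left out, the estimates for Het against WT ran from -0.15 (without WT library 1) to 6.54 for Pcdhga5, from -2.41 to 0.15 (without WT library 1) for Pcdhb18, from -3.65 to 3.69 (without WT library 2) for Pcdhga10 and from -0.71 (without Het library 2) to 1.20 for Pcdhgb5. For Hom against Het they ran from -0.90 to 0.30 (without Het library 2) for Pcdhb21 and from -5.52 to 2.52 (without Het library 1) for Pcdha1, which was 0.30 without Hom library 1. For Het against WT in m5C RIP, Pcdhgc3 ran from -0.31 (without the fibroblast Het library) to 1.38, and in cortex m5C RIP over input Pcdhb5 ran from -0.41 (without the WT library) to 1.31. For the reversals the cause was not tested.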
